A study of Mus musculus with 24 samples.

Results

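Guanylate-binding proteins are large GTPases of the dynamin superfamily that cells make in response to interferon, above all interferon-gamma. They gather on the membranes of bacteria and of the vacuoles that hold parasites, and they help to open them and to activate the inflammasome caspases. Mouse genes of the family lie in a cluster on chromosome 3 and another on chromosome 5. Their levels are described here in Bcr-Abl-driven mouse leukaemia cells of the line DA1-3B that were transfected with plasmids for p65/RelA, the NF-kB subunit that switches on many immune genes. The members are all non-control probes whose gene name in the array files begins with Gbp and a digit: 15 probes for 11 genes, of 39429 probes and 30199 gene names. The family was chosen by a known result of the same arrays, the higher level of Gbp2 in WT than in VOID, so every value of a Gbp probe in WT against VOID, and Gbp2 in any comparison with WT, is a description without a test.

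The 6 groups had 4 arrays each. WT cells received full-length p65/RelA, D361E cells a mutant that is not cleaved, p1-361 cells the N-terminal fragment, p363-549 cells the C-terminal fragment, and p1-361+p363-549 cells both fragments together (called both fragments here). VOID cells received the empty plasmid. All 6 groups were the same Bcr-Abl positive line of strain C3H eOuJ, and all received a plasmid. For the C-terminal fragment, the protocol text gives a first residue 1 lower than the sample names. The labels do not state if replicates were grown apart, and every p-value here rests on their spread alone, which may be technical. Each level is the log2 processed signal minus the 75th percentile of the array's own signals, so that a level of -3 is 3 log2 units below that percentile. A probe counted as measured on an array where the scanner software marked it well above background. The 75th percentile itself was 635.8 to 1214 signal units, and the share of spots well above background lay between 49.4% and 55.5% per array. Of 8 markers of blood cells, 6 were well above background on all 24 arrays (Coro1a, Itgb2, Laptm5, Myb, Ptprc and Spi1, named Sfpi1 in the files), while Kit was on none. The 8 summed to 63.0 to 71.5 times the 75th percentile with both fragments, against 87.2 to 97.3 in VOID, and the part of this in the results was not tested.

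Some arrays stood apart from their groups, and they touch the family directly. Over 200 probes outside the family, 21 of 24 arrays correlated best with the mean of their own group in the other 3 sets of sample numbers (r of 0.56 to 0.96 across probes). The exceptions were the replicate 4 arrays of the 3 fragment groups. The p363-549 array had r = 0.97 with both fragments and -0.54 with its own group, the p1-361 array had r = 0.80 with p363-549 and 0.11 with its own group, and the both-fragment array had r = 0.76 with p1-361 and -0.12 with its own group. Each of the 3 groups was thus the closest once. Whether the labels of these arrays were exchanged was not tested, and each fragment mean over 4 arrays holds 1 of them. Groups were kept as labelled, and counts of called members are given with and without these arrays. Leaving them out, a choice made on their values, makes the remaining spread smaller by itself.

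For 7 probes that carry the results, the first 30 of their 60 bases are shown because the probe, not the gene, is what was measured. In the build mm9 that the array files give, Gbp2 was read at chr3:142300719-142300778, Gbp3 at chr3:142236032-142236091, Gbp5 at chr3:142184779-142184838 (the first probe), and Gbp7 at chr3:142209379-142209438. On the minus strand of chromosome 5, Gbp4 was read at chr5:105544852-105544911, Gbp9 at chr5:105508946-105509005 and Gbp11 at chr5:105752145-105752204. A second Gbp5 probe was designed on an alternatively spliced transcript. Whether a probe lies in coding or untranslated sequence was not analysed here.
Gbp2: gtttctcctgtataatcttaagtgttcctc
Gbp3: cacattggcatatgtatcccagttgtacac
Gbp5, first probe: gtaaagtttaaaaatgatttctcactattc
Gbp7: ggagaagaatagctcattgggtgcaaaaat
Gbp4: gtgtatatcagctattatttaagctacctt
Gbp9: aatataaaagtgctgatttgagggtggctg
Gbp11: ctggaaactacttaaacatccctgagttag

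RefSeq's table of promoters (build GRCm38.p6, windows of 300 bases) held the genes of the chromosome 3 cluster. The bases before the annotated gene start of the 4 whose level is described below are shown, because each of them lay above VOID without overlap in WT. Capitals mark matches to 3 motifs on either strand: the core of the interferon response element (GAAANNGAA), the STAT-binding GAS element (TTCNNNGAA) and the kB motif of NF-kB, by name.
Gbp2, chr3:142620413-142620662, plus strand: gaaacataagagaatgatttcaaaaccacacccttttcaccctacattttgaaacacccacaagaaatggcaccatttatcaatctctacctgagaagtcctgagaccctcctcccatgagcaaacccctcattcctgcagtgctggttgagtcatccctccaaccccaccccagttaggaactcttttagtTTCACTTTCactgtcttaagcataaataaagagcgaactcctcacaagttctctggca
Gbp3, chr3:142559794-142560015, plus strand: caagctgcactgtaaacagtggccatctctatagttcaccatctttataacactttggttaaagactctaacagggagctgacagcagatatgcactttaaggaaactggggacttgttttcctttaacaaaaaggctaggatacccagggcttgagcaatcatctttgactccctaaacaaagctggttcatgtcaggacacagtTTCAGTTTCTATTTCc
Gbp5, chr3:142496684-142496933, plus strand: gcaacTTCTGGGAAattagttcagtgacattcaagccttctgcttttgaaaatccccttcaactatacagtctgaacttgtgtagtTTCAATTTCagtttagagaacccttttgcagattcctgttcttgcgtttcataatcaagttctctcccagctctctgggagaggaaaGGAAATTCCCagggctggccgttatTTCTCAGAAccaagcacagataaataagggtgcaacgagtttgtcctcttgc
Gbp7, chr3:142530086-142530335, plus strand: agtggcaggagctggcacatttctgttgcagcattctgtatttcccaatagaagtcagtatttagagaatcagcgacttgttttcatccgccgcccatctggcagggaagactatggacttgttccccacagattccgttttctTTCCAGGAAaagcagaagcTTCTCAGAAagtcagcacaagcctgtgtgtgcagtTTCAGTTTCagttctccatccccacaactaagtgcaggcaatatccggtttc
The interferon response core was found in the window of each of these genes, once in Gbp2, Gbp5 and Gbp7 and as 2 overlapping matches in Gbp3, and once in that of Gbp1 (Gbp2b in RefSeq). It was found in 8.56% of all 32851 promoter windows. GAS matches numbered 2 in Gbp5 and 2 in Gbp7 and 0 in the others, against 8.30% of windows with any. The single kB match of the cluster was in Gbp5, 77 bases before the start, against 4.51% of windows. In a second Gbp3 window none of the 3 motifs was found. No promoter of Gbp4, Gbp6, Gbp8, Gbp9, Gbp10 or Gbp11 is printed.

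A probe entered the fit if some group had it well above background on each of its 4 arrays, which 10 of the 15 did, for 9 genes. Gbp2 entered only through WT and D361E, where it was highest, and the first Gbp5 probe only through WT, D361E and both fragments, so counts over the fitted members do not show by themselves that the family moved. Among the 5 others, Gbp8 and a second Gbp7 probe were well above background on 0 of 24 arrays, with signals of 4.30 to 12.2 and 4.25 to 9.15 units. The 2 probes of Gbp1 (renamed Gbp2b in RefSeq) were well above background on 10 and 1 of 24 arrays, and the second Gbp6 probe on 4 of 24. Fitted members were dim too: the highest signal of Gbp2 on any array was 115 units, that of Gbp4 231 and that of the first Gbp5 probe 264. The Gbp10 probe and the second Gbp6 probe each list transcripts of both Gbp6 and Gbp10, so these 2 genes cannot be told apart by them. Gbp11 is annotated as a transcribed pseudogene in RefSeq.

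**Figure D1:**
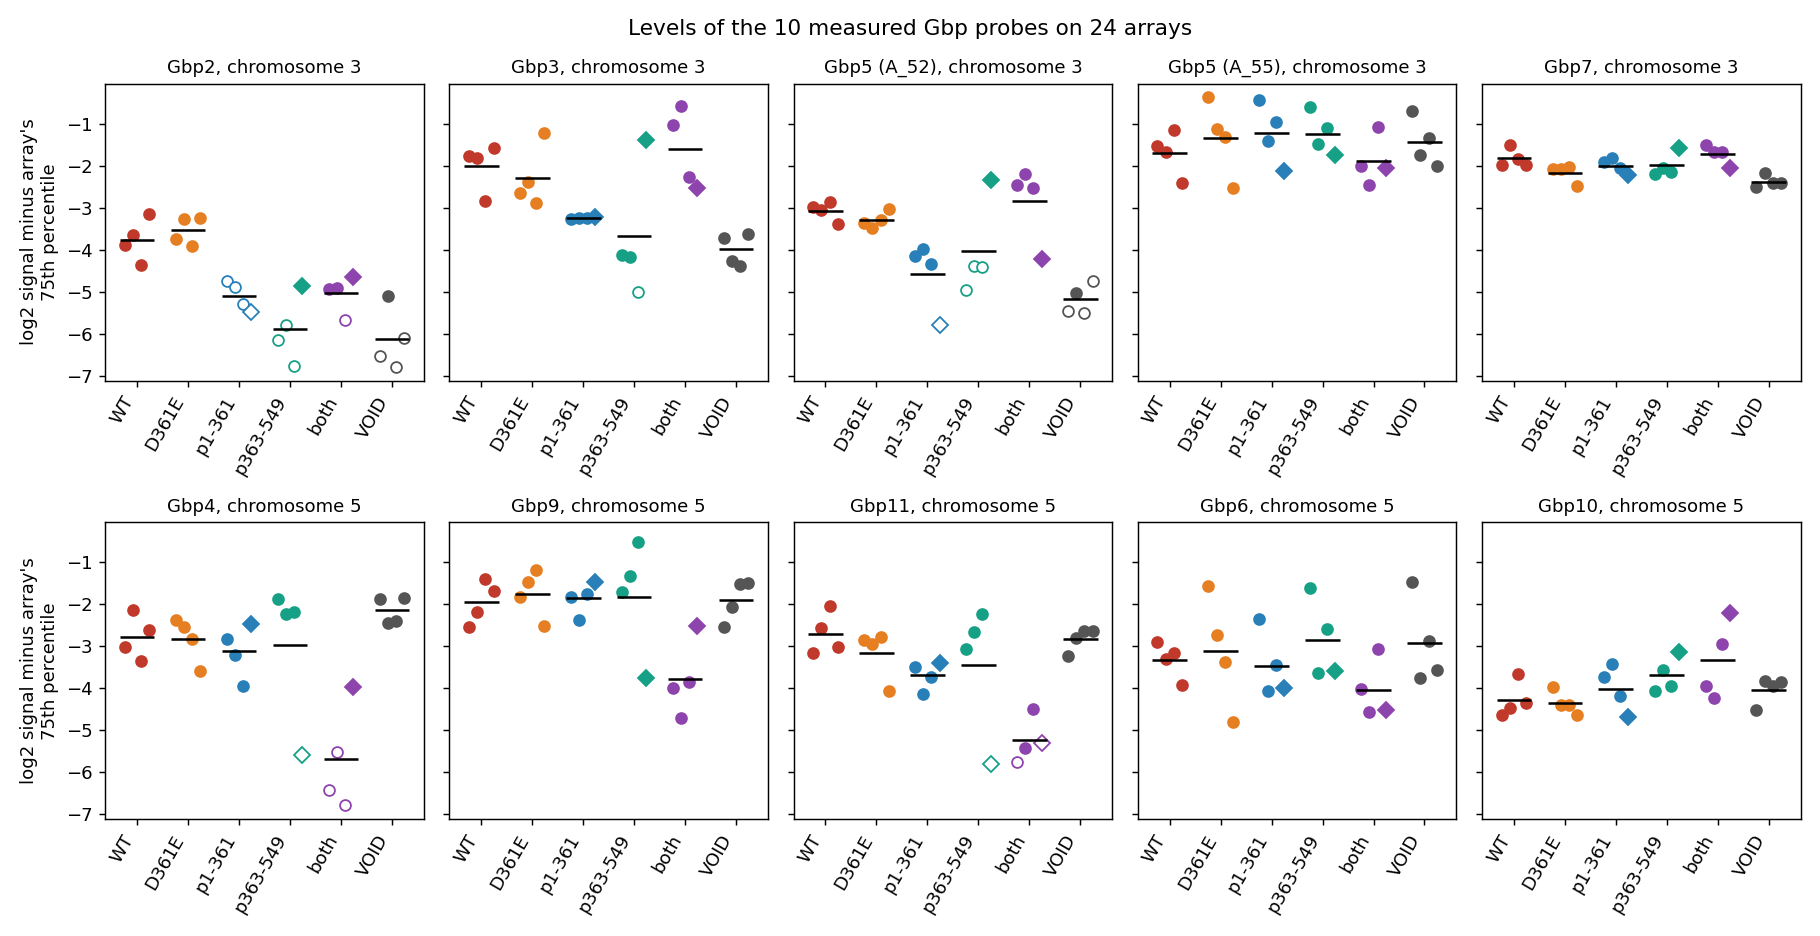
Level of each of the 10 fitted probes (log2 signal minus the array's 75th percentile, vertical axis) in the 6 groups of 4 arrays. Points are arrays, lines are group means, open symbols were not well above background, and diamonds are the replicate 4 arrays of the fragment groups; both-fragment arrays are high for Gbp3 and the first Gbp5 probe (A_52) and low for Gbp4, Gbp9 and Gbp11.

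With both fragments, Gbp3, the first Gbp5 probe and Gbp7, of the chromosome 3 cluster, were higher than in VOID, and Gbp4, Gbp9 and Gbp11, of the chromosome 5 cluster, were lower. The other 4 probes did not pass and lay on both sides of 0 in each cluster, and a difference between the clusters was not tested. Thus 6 of the 10 probes passed limma's test (adjusted p under 0.05), 3 in each direction, where 3.76% of all 19522 probes passed. The first Gbp5 probe entered the fit only through groups where it was high, both fragments among them, so this count depends on the filter. With no filter on dim probes 5 of 15 passed, beside 503 of 39429 probes. The median difference of the 10 probes was 0.10, beside -0.01 over all probes.

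Gbp4 levels with both fragments were -6.41, -5.53, -6.78 and -3.98, against -1.86, -2.44, -2.39 and -1.85 in VOID. The groups did not overlap, and only replicate 4 of both fragments, its highest array, was well above background. Gbp4 was lower by 3.54 ± 0.64 on the log2 scale (difference -3.54 ± 0.64, limma SE, n = 4 arrays per group, adjusted p = 0.00223).

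Gbp11 had levels of -5.75, -5.43, -4.48 and -5.29 with both fragments, against -3.23, -2.80, -2.62 and -2.63 in VOID. Every both-fragment array was below every VOID array, and 2 of the 4 were well above background. The difference was -2.42 ± 0.52 (adjusted p = 0.00915 in limma). Gbp9 had levels of -4.0, -4.72, -3.85 and -2.52 with both fragments, against -2.55, -2.06, -1.52 and -1.49 in VOID. Replicate 4 of both fragments reached the lowest VOID array, so the groups met, and all arrays of both were well above background. Its difference of -1.87 ± 0.52 was just past the threshold (adjusted p = 0.0469), and leaving out a single array, of whichever group, ended the call for 19 of the 24 arrays, with adjusted p up to 0.198.

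On chromosome 3, the first probe of Gbp5, which promotes assembly of the NLRP3 inflammasome in mouse macrophages, had levels of -2.45, -2.20, -2.53 and -4.21 with both fragments, against -5.46, -5.03, -5.51 and -4.74 in VOID. The groups did not overlap, although replicate 4 of both fragments was well below its 3 fellows, and 1 VOID array was well above background. The difference was 2.34 ± 0.47 (adjusted p = 0.00578 in limma). The second Gbp5 probe did not share it: its difference was -0.44 ± 0.43 (adjusted p = 0.606), with levels of -2.0, -2.46, -1.07 and -2.05 with both fragments, against -0.71, -1.75, -1.34 and -2.0 in VOID. The 2 probes of this gene disagreed in sign, and the second was well above background on all 24 arrays.

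Gbp3 levels were -1.03, -0.57, -2.28 and -2.54 with both fragments, against -3.71, -4.27, -4.39 and -3.62 in VOID. All 4 both-fragment arrays exceeded all 4 VOID arrays, and all 8 were well above background. The difference was 2.39 ± 0.57 (adjusted p = 0.0177), and it missed the threshold when VOID replicate 2 or 3, or replicate 1 or 2 of both fragments, was left out (adjusted p of 0.0546 to 0.0918). Gbp7, which mouse macrophages need for full defence against bacteria and Toxoplasma, changed less. It had levels of -1.51, -1.68, -1.67 and -2.07 with both fragments, against -2.51, -2.17, -2.42 and -2.42 in VOID, again without overlap. Its difference was 0.65 ± 0.16 (adjusted p = 0.0266), and it missed the threshold without any 1 of VOID replicates 1, 3 and 4 or both-fragment replicates 1, 2 and 3 (adjusted p of 0.0577 to 0.12).

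The remaining members did not pass with both fragments. Gbp2, which is recruited to Toxoplasma vacuoles in mouse cells, had levels of -4.93, -4.91, -5.68 and -4.64 with both fragments, against -6.54, -5.10, -6.80 and -6.12 in VOID, a difference of 1.10 ± 0.37 (adjusted p = 0.112). With a block for each of the 4 consecutive sets of 6 samples its adjusted p was 0.0141, and without VOID replicate 2, the highest VOID array, it was 0.0351. Gbp6 differed by -1.13 ± 0.61 (adjusted p = 0.334) and Gbp10 by 0.70 ± 0.36 (adjusted p = 0.308).

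Both fragments and VOID shared a slide on 2 of the 6 slides, with 1 array of each. There the differences were -3.98 and -4.93 for Gbp4, -2.95 and -1.85 for Gbp11, and -1.94 and -2.36 for Gbp9. They were 2.58 and 2.21 for the first Gbp5 probe, 3.24 and 1.34 for Gbp3, and 0.66 and 0.75 for Gbp7. Each kept the sign of the whole comparison. With slide in the fit the Gbp9 call was lost (adjusted p = 0.0944 as a fixed block and 0.0521 as a random one), and the other 5 calls were kept. The both-fragment arrays were brighter: their 75th percentile of signal was 846.7 to 1214 units, against 665.7 to 924.1 in VOID, and its part in the differences was not tested. After normexp background correction, which adds 50 units to every signal and so shrinks differences of dim probes, none of the 6 members passed: the differences were -1.23 for Gbp4, -0.79 for Gbp11, -0.83 for Gbp9, 1.04 for Gbp5, 1.51 for Gbp3 and 0.56 for Gbp7. Over all probes that correction left 215 calls in place of 735.

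**Figure D2:**
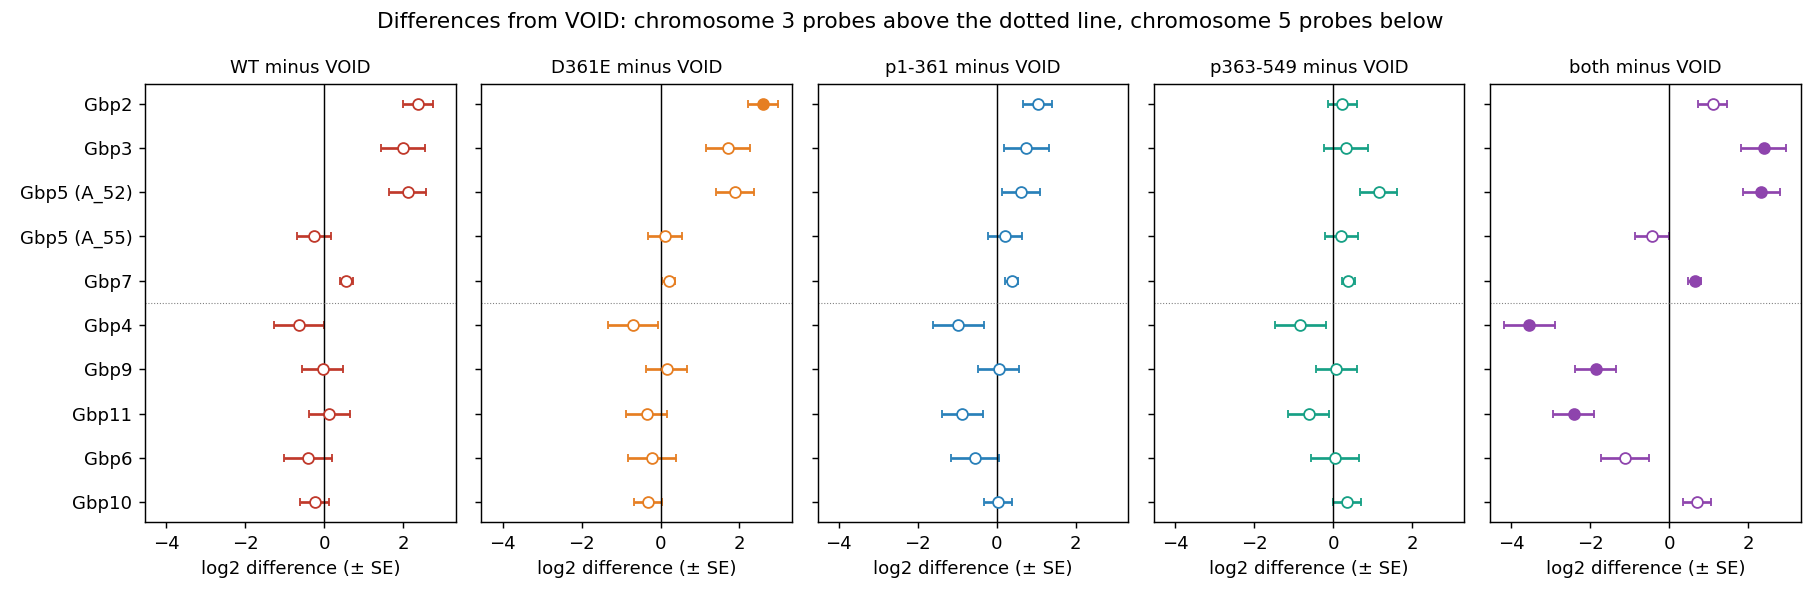
Log2 difference from VOID for the 10 fitted probes (rows) in each of the 5 transfected groups (panels), with limma SE as bars. Filled points passed the test (adjusted p under 0.05); WT is drawn open throughout because it was not tested. In the both-fragment panel 3 chromosome 3 probes lie to the right and 3 chromosome 5 probes to the left of 0.

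In D361E, 1 of 10 probes passed against VOID, that of Gbp2, where 0.589% of all probes passed. Its levels were -3.75, -3.27, -3.90 and -3.25 in D361E, against -6.54, -5.10, -6.80 and -6.12 in VOID. All 4 D361E arrays were well above background and above every VOID array, of which 1 was well above background. The difference was 2.59 ± 0.37 (adjusted p = 0.000548 in limma), and it was 3.53, 2.36 and 1.20 on the 3 slides that held both groups. After normexp correction it was 0.76 (adjusted p = 0.9999). Gbp2 entered the fit through D361E itself, and the VOID arrays are those of the contrast that chose the family, so this call is not independent of the choice. Without the filter on dim probes its adjusted p was 0.00143.

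The neighbours of Gbp2 were also above VOID without overlap in D361E, but did not pass. The first Gbp5 probe had levels of -3.37, -3.48, -3.30 and -3.05 in D361E, against -5.46, -5.03, -5.51 and -4.74 in VOID, a difference of 1.89 ± 0.47 (adjusted p = 0.0885). Gbp3 had levels of -2.66, -2.39, -2.88 and -1.21 in D361E, against -3.71, -4.27, -4.39 and -3.62 in VOID, a difference of 1.71 ± 0.57 (adjusted p = 0.336). Neither estimate depends on the 3 discordant arrays, but the spread shared by all groups does: without them the adjusted p was 4.19e-06 for Gbp5 and 0.0269 for Gbp3. In a fit of the D361E and VOID arrays alone Gbp5 passed too (adjusted p = 0.00236). Gbp7 differed by 0.21 ± 0.16, and the 5 chromosome 5 probes by -0.70 to 0.16, none of which passed.

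In WT, described without a test because this contrast chose the family, the same 3 genes stood highest above VOID. Gbp2 levels were -3.88, -3.64, -4.37 and -3.16 in WT, against the VOID levels given above, a difference of 2.37 ± 0.37. The first Gbp5 probe had levels of -2.97, -3.06, -2.87 and -3.38 in WT and differed by 2.11 ± 0.47. For Gbp3 the WT levels were -1.76, -1.82, -2.84 and -1.58 and the difference 2.0 ± 0.57. Gbp7 differed by 0.55 ± 0.16, with levels of -1.98, -1.50, -1.83 and -2.0 in WT. Each of these 4 had its WT arrays above its VOID arrays without overlap. The chromosome 5 probes and the second Gbp5 probe differed by -0.64 to 0.12. In the fit, 2 of 10 probes were past the threshold beside 0.487% of all probes, from which nothing is read. WT and D361E share the VOID arrays in these comparisons.

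D361E and WT were set against each other directly. Other than Gbp2, which is not tested here, no member passed limma's test, where 0.0871% of all probes did, and none had an unadjusted p under 0.05. For Gbp2 the difference, D361E minus WT, was 0.22 with a 95% interval of -0.56 to 1.00, and it is given without a test. For the first Gbp5 probe the difference was -0.23 (-1.21 to 0.76), and for Gbp3 it was -0.29 (-1.46 to 0.89). Those intervals span a lower level by over 1 log2 unit for Gbp5 and Gbp3. For Gbp7 every D361E array lay below every WT array, and the difference was -0.34 (-0.68 to 0.003), which did not pass.

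Neither single fragment gave a called member. Against VOID, 0 of 10 probes passed in p1-361 (0.615% of all probes did) and 0 of 10 in p363-549 (0.538%), by limma, with 2 unadjusted p under 0.05 in each. In p1-361, Gbp2 had levels of -4.74, -4.88, -5.30 and -5.49, none of them well above background, against -6.54, -5.10, -6.80 and -6.12 in VOID. The difference was 1.04 ± 0.37 (adjusted p = 0.35), and adjusted p = 0.0469 with the 4 sample sets as a block. Gbp3 in p1-361 lay in a narrow band at -3.28, -3.25, -3.24 and -3.23, above all VOID arrays, but its difference of 0.75 ± 0.57 did not pass (adjusted p = 0.932). The spread in this test is that of all 6 groups, and the SD of Gbp3 was 0.02 in p1-361, 1.58 in p363-549 and 0.38 in VOID. Gbp4 and Gbp11 in p1-361 were below every VOID array, with differences of -0.97 ± 0.64 (adjusted p = 0.872) and -0.87 ± 0.52 (adjusted p = 0.819).

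The p363-549 group was split by its replicate 4. For Gbp4 its levels were -1.87, -2.23, -2.17 and -5.58, and for Gbp11 they were -3.06, -2.66, -2.23 and -5.81: 3 arrays near VOID and 1 at the level of both fragments. The first Gbp5 probe had -4.97, -4.39, -4.40 and -2.35 and Gbp3 had -4.13, -4.18, -5.00 and -1.38, again with replicate 4 at the both-fragment level. Gbp9 had -1.70, -1.33, -0.52 and -3.75, where replicate 4 was the lowest. With this array the differences from VOID were -0.83 ± 0.64 for Gbp4, 1.16 ± 0.47 for Gbp5 and 0.33 ± 0.57 for Gbp3. The 3 other arrays averaged -2.09 ± 0.19 for Gbp4, -4.59 ± 0.33 for Gbp5 and -4.43 ± 0.49 for Gbp3 (SD, n = 3), and the VOID means were -2.14, -5.18 and -4.0.

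**Figure D3:**
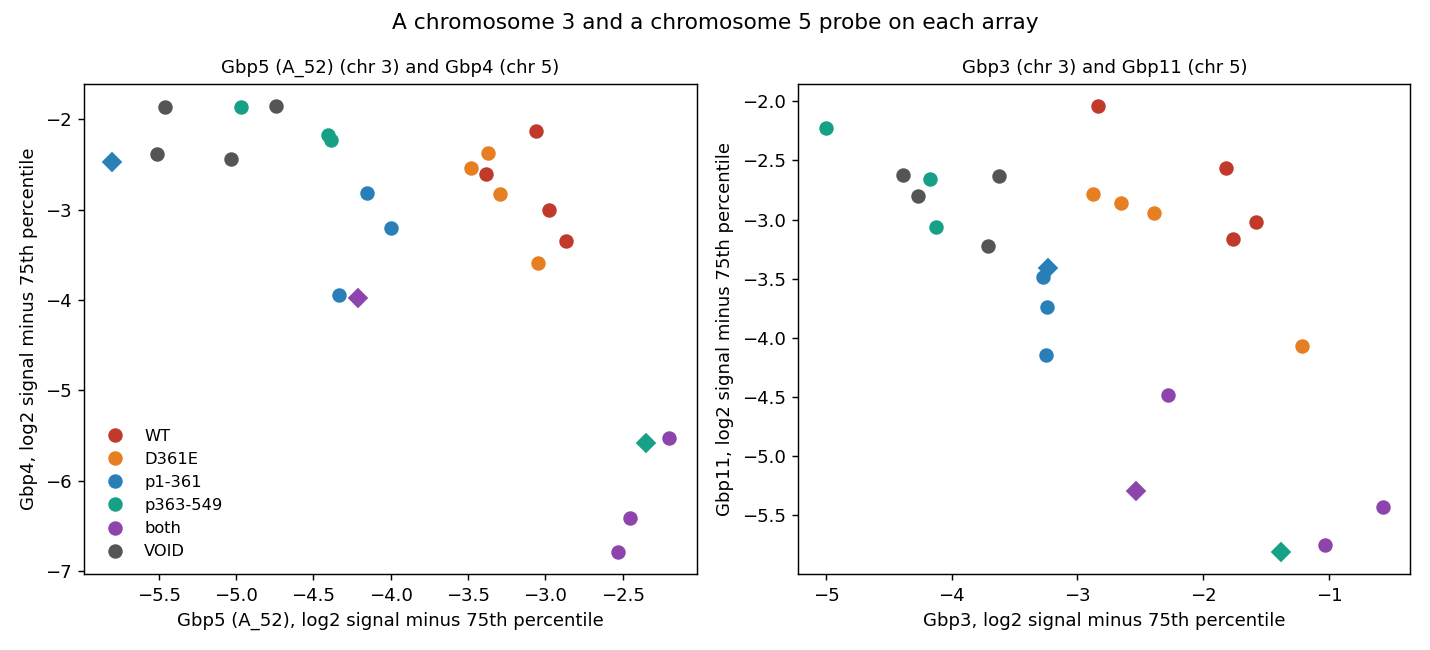
Levels of a chromosome 3 probe (horizontal axis) and a chromosome 5 probe (vertical axis) on each of the 24 arrays, as log2 signal minus the 75th percentile: Gbp5 (first probe, A_52) with Gbp4 on the left, Gbp3 with Gbp11 on the right. Colours are groups and diamonds are the replicate 4 arrays of the fragment groups; the p363-549 diamond, at -2.35 and -5.58 in the left panel, lies among the both-fragment arrays.

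Whether the 2 fragments together did more than each alone was tested by direct contrasts. With all arrays, 0 of 10 members passed for both fragments minus p1-361, for both fragments minus p363-549 and for p1-361 minus p363-549, where 0% of all probes passed in each; the unadjusted p was under 0.05 for 5, 6 and 1 of the 10. Gbp4 differed by -2.57 ± 0.64 between both fragments and p1-361 (adjusted p = 0.106) and by -2.71 ± 0.64 between both fragments and p363-549 (adjusted p = 0.159). The first Gbp5 probe differed by 1.72 ± 0.47 (adjusted p = 0.115) and 1.18 ± 0.47 (adjusted p = 0.212) in the same pair of contrasts. With the 4 sample sets as a block, and all 24 arrays, 5 members passed against p1-361 (Gbp3, Gbp4, Gbp5, Gbp9 and Gbp11, beside 2761 of all probes) and 6 against p363-549 (Gbp2, Gbp3, Gbp4, Gbp6, Gbp9 and Gbp11, beside 2476), while p1-361 minus p363-549 stayed at 0 members and 0 probes. For additivity, the change with both fragments less the sum of the separate changes, 0 of 10 members passed beside 0.2% of all probes, and 1 had an unadjusted p under 0.05. The most negative estimate was that of Gbp9, -2.0 with a 95% interval of -3.53 to -0.47 (adjusted p = 0.298).

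Leaving out the 3 discordant arrays, without a block, also gave calls in these contrasts. Both fragments (3 arrays) then had means of -6.24 ± 0.65 for Gbp4, -5.22 ± 0.66 for Gbp11, -4.19 ± 0.47 for Gbp9, -2.39 ± 0.17 for Gbp5 and -1.30 ± 0.89 for Gbp3 (SD, n = 3). Gbp4 was lower than in p1-361 (difference -2.92 ± 0.37, adjusted p = 5.26e-05) and lower than in p363-549 (difference -4.15 ± 0.37, adjusted p = 4.99e-07). No both-fragment array left in had Gbp4 well above background, so its differences here run to the level of background. Gbp5 was higher than in p1-361 by 1.77 ± 0.21 (adjusted p = 2.33e-05) and than in p363-549 by 2.19 ± 0.21 (adjusted p = 1.31e-06). No p363-549 array left in had this Gbp5 probe well above background. Gbp3, Gbp9 and Gbp11 passed in both contrasts in the sign of their VOID difference, and Gbp7 in the contrast with p363-549 (0.52 ± 0.15, adjusted p = 0.0333). The additivity estimates past the threshold were -2.97 for Gbp4, -2.93 for Gbp9, 2.40 for Gbp3 and 1.17 for Gbp5. The share of all probes past the threshold rose as well, to 10.1% against p1-361 and 13.3% against p363-549. For additivity that share was not counted in this refit, so nothing is read from the additivity calls.

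Against VOID the same 6 members passed with both fragments when the 3 arrays were left out, beside 8.44% of all probes. Their differences were then -4.11 for Gbp4, -2.40 for Gbp11, -2.28 for Gbp9, 2.79 for Gbp5, 2.70 for Gbp3 and 0.76 for Gbp7. Gbp4 was again not well above background on any both-fragment array left in. In D361E against VOID, 3 members passed in place of 1 (Gbp2, Gbp5 and Gbp3), beside 1.42% of all probes. In p1-361 Gbp5 passed (1.02 ± 0.20, adjusted p = 0.00645, beside 2.38% of all probes), and in p363-549 none did (0.809%).

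**Figure D4:**
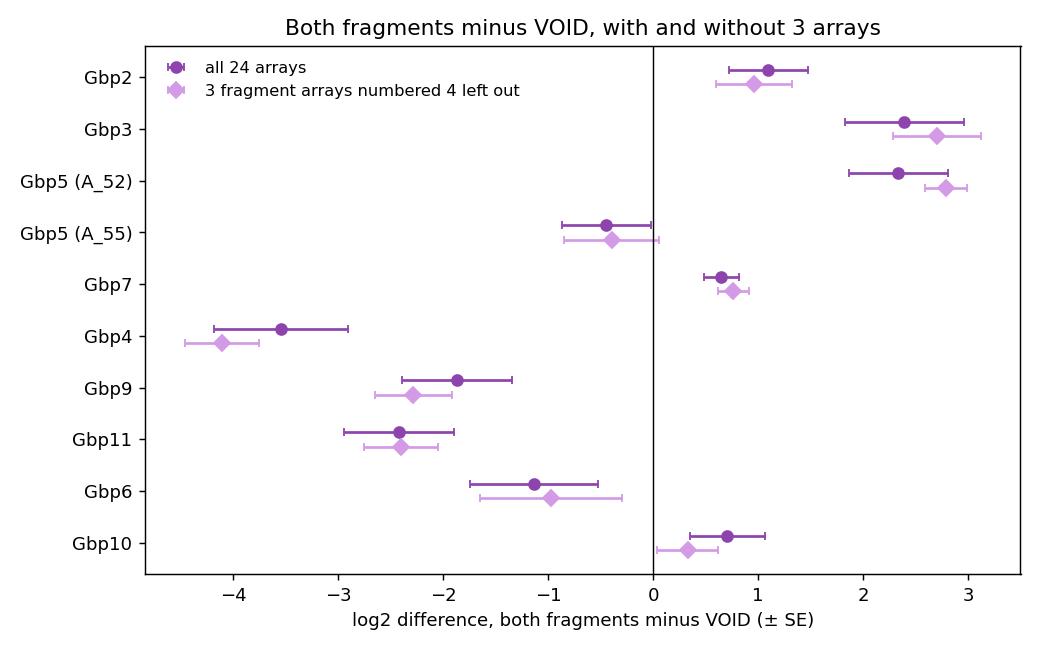
Log2 difference, both fragments minus VOID, for the 10 fitted probes with all 24 arrays (circles) and with the 3 discordant fragment arrays left out (diamonds); bars are limma SE. The 6 members that passed keep their sign in both.

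Against WT, both fragments had lower levels of Gbp11 (difference -2.54 ± 0.52, adjusted p = 0.0215) and Gbp4 (-2.90 ± 0.64, adjusted p = 0.0327). These were 2 of the 9 probes other than Gbp2, where 0.881% of all probes passed. The WT levels were -3.17, -2.57, -2.04 and -3.02 for Gbp11 and -3.01, -2.13, -3.34 and -2.60 for Gbp4, and no both-fragment array reached them. Without the 3 discordant arrays both passed (-2.52, adjusted p = 0.000109 for Gbp11 and -3.47, adjusted p = 2.6e-06 for Gbp4), and so did Gbp9 (-2.24, adjusted p = 0.000647), beside 4.85% of all probes. With the sample sets as a block the same 3 passed, beside 1288 probes. The Gbp4 difference without the discordant arrays again runs to the level of background. With all arrays both calls were lost with slide as a fixed block (adjusted p = 0.11 and 0.132). The Gbp11 call was also lost without WT replicate 2 or 3 or both-fragment replicate 1 or 2 (adjusted p of 0.077 to 0.117), and the Gbp4 call without any 1 of the WT arrays or of both-fragment replicates 1, 2 and 3 (0.06 to 0.159). Gbp5, Gbp3 and Gbp7 differed from WT by 0.22 ± 0.47, 0.40 ± 0.57 and 0.10 ± 0.16, none of which passed. With all arrays, none of the 9 probes other than Gbp2 passed against WT in p1-361 (0.123% of all probes did) or in p363-549 (0.149%). Among them, the unadjusted limma p was under 0.05 for the first Gbp5 probe and Gbp3 in p1-361, and for Gbp3 in p363-549. Without the 3 arrays the first Gbp5 probe was lower than in WT in p1-361 (-1.09 ± 0.20, adjusted p = 0.00816, beside 0.625% of all probes) and in p363-549 (-1.51 ± 0.20, adjusted p = 0.000299, beside 0.589%), and Gbp3 was lower in p363-549 (-2.43 ± 0.42, adjusted p = 0.00483). No p363-549 array left in had the first Gbp5 probe well above background, and Gbp3 was not well above background on replicate 3.

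Gbp2 was high in the full-length groups and lower in all fragment groups. Its means were -3.54 ± 0.34 in D361E, -3.76 ± 0.50 in WT, -5.04 ± 0.45 with both fragments, -5.10 ± 0.35 in p1-361, -5.90 ± 0.79 in p363-549 and -6.14 ± 0.75 in VOID (SD, n = 4 each). Neighbours in this order overlapped except WT and both fragments. It was well above background on 4 of 4 arrays in D361E and WT, on 3 with both fragments, on 0 in p1-361 and on 1 each in p363-549 and VOID. Set against WT, and without a test, it differed by -1.28 ± 0.37 with both fragments, -1.34 ± 0.37 in p1-361 and -2.14 ± 0.37 in p363-549. As p1-361 had no array above background, the fold is a bound: WT was at least 2.07-fold and D361E at least 2.42-fold brighter than the background level of the p1-361 arrays. Measured means give 2.53-fold for WT over p1-361.

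For the other members the order of group means differed. The first Gbp5 probe, Gbp3 and Gbp7 had their highest mean with both fragments (-2.85, -1.61 and -1.73) and WT next (-3.07, -2.0 and -1.83), and VOID was lowest for all of them (-5.18, -4.0 and -2.38). Among neighbours in these orders only D361E and p1-361 lay apart, for Gbp3. Gbp4 and Gbp11 ran the other way, with both fragments lowest (-5.68 and -5.24) and apart from the next group, p1-361. Gbp9 had 5 groups between -1.95 and -1.75 and both fragments at -3.77. The F test over the 6 groups includes WT against VOID, the contrast that chose the family, so its calls are not independent of the choice. In this F test, Gbp5 (adjusted p = 0.0195), Gbp4 (0.0204) and Gbp11 (0.0421) passed and Gbp3 did not (0.0563). With Gbp2, which is not counted as tested here, that makes 4 of 10 past the threshold, beside 2.41% of all probes, and 7 of 10 without the 3 arrays, beside 8.65%. Gbp6, Gbp10 and the second Gbp5 probe did not pass in any comparison with all arrays and no block. With the sample sets as a block Gbp6 passed for both fragments against VOID and against p363-549.

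The probes most like Gbp2 over the 24 arrays, by Pearson r of the level, were those of Ltb (0.87), Pik3r6 (0.85), Irg1 (0.85), Ppp1r27 (0.84) and Neurl3 (0.83). Ltb encodes the cytokine lymphotoxin beta, and Irg1 (now Acod1) the enzyme that makes itaconate in activated macrophages. The second Gbp5 probe was most like 5430400D12Rik, A430102J17Rik, Esr2, Rnf165 and Exoc6b, all with r of 0.95. All these probes share the 24 arrays, and the 6 group means enter each r.

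Other interferon genes were read for comparison, from lists chosen with earlier results of these arrays known. Their counts stand beside the 3.76% of all probes that passed for both fragments against VOID. With both fragments, 2 of 8 measured immunity-related GTPases rose against VOID: Ifi47 (1.04 ± 0.20, adjusted p = 0.00443) and Tgtp2 (1.37 ± 0.33, adjusted p = 0.0191), which is nearly identical to Tgtp1. Of 23 other interferon-stimulated genes, 3 rose and 1 fell. The 3 were antiviral genes: Oas2 (1.74 ± 0.46, adjusted p = 0.0341), Mx2 (1.55 ± 0.41, adjusted p = 0.0327) and Eif2ak2, the kinase PKR (0.85 ± 0.20, adjusted p = 0.0166). Ifitm3, a barrier to virus entry, fell by 0.97 (difference -0.97 ± 0.27, adjusted p = 0.0472). Of 16 interferon receptors, ligands and signalling genes, 1 fell: Socs1, the inhibitor of JAK kinases, at -2.37 ± 0.35 (adjusted p = 0.000321). The list medians were 0.44, 0.66 and 0.34, beside -0.01 over all genes. Among 11 dynamin-family relatives, Mx2 was again the 1 that rose, and of 13 autophagy and ubiquitin genes 0 passed in limma.

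In WT, D361E, p1-361 and p363-549, no gene of the immunity-related GTPase, signalling or other interferon-stimulated lists passed against VOID. The list medians ran from 0.05 to 0.35. Over all probes, 0.487% passed in WT, 0.589% in D361E, 0.615% in p1-361 and 0.538% in p363-549. Of 9 inflammasome genes, Casp4 (caspase-11, which guanylate-binding proteins help to activate in mouse cells) rose in all 5 groups: by 1.28 ± 0.16 in WT, 1.03 ± 0.16 in D361E, 1.19 ± 0.16 in p1-361, 1.35 ± 0.16 in p363-549 and 1.24 ± 0.16 with both fragments (largest adjusted p = 0.00152). All comparisons here share the same VOID arrays, so the 5 rises are not independent of each other. Nek7, a partner of NLRP3, fell with both fragments (-0.72 ± 0.14, adjusted p = 0.00478). Of 11 NF-kB feedback genes, 3 rose in WT and the same 3 in D361E (Tnfaip3, Nfkbia and Nfkbie), 0 in p1-361, 1 in p363-549 (Rela) and 5 with both fragments (Nfkb1, Nfkb2, Nfkbie, Rela and Relb). This list was chosen on these arrays and is no independent evidence of direction. Rela is the gene of the transfected p65 itself, and whether its probe read plasmid RNA was not tested.

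**Figure D5:**
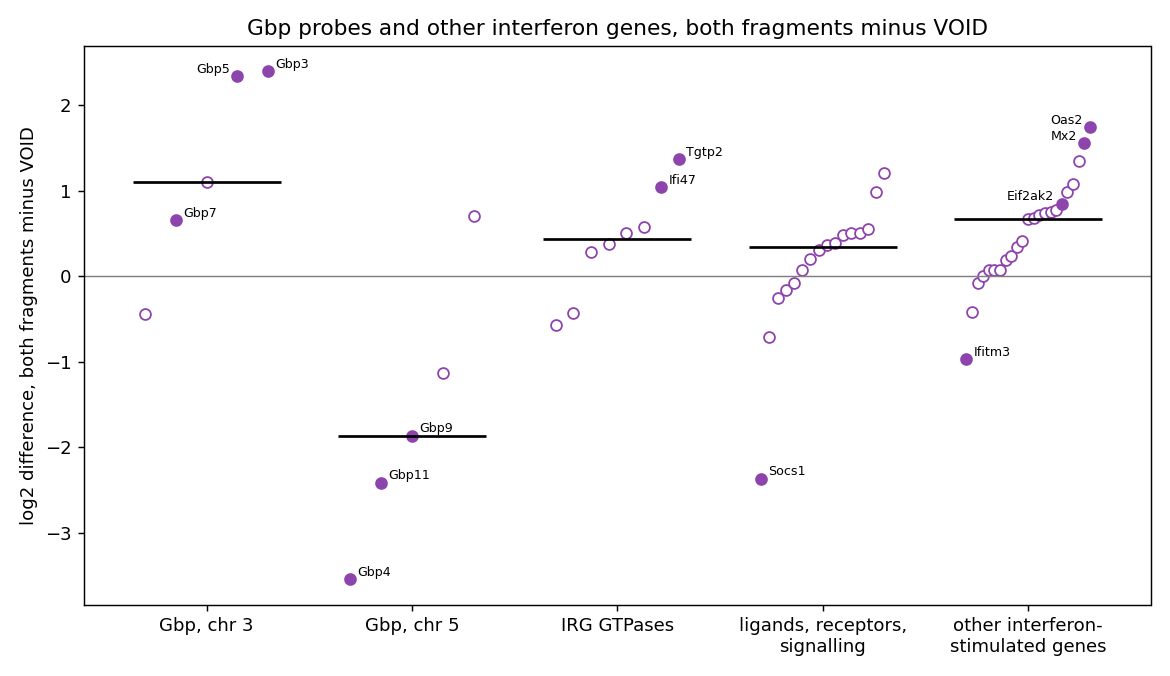
Log2 difference, both fragments minus VOID (vertical axis), for the Gbp probes of each chromosome and for 3 lists of interferon genes, 1 point per probe or gene, with the median as a line. Filled points passed limma's test; the Gbp probes spread from -3.54 to 2.39, the other interferon genes from -2.37 to 1.74.

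With both fragments, the summed mast cell markers lay apart from VOID, and the sums of the other cell types given below overlapped it. Of 5 mast cell markers, Hdc was well above background on all 24 arrays and Ms4a2 on none. The summed level of the 5 (in units of the 75th percentile) was 0.364 to 0.575 with both fragments, against 2.37 to 5.42 in VOID. It was also below every VOID array in D361E (0.671 to 0.912), p1-361 (0.695 to 1.29) and p363-549 (0.407 to 1.69). In WT it was 1.96 to 3.45 and overlapped VOID. Fcer1a, of the IgE receptor, was lower in all 5 groups than in the VOID arrays that they share, by -6.67 ± 0.66 with both fragments. There it was well above background on 0 of 4 arrays. Of 8 T and NK cell markers, Cd3e, Gzmb and Prf1 were well above background on all 24 arrays and 4 on no array. The summed level of the 8 was 0.897 to 38.8 with both fragments, against 18.0 to 82.7 in VOID. Of these, Gzmb fell with both fragments (-6.33 ± 1.63, adjusted p = 0.0297). Of 6 erythroid and megakaryocyte markers, 3 fell and Pf4 rose with both fragments, and the summed level was 70.1 to 180.4 there, against 58.4 to 136.6 in VOID. All 4 B cell markers were above background on no array. Fewer cells of a type and less RNA per cell cannot be told apart here, and the part of these markers in the Gbp differences was not tested.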

How the data were processed

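Cy3-labelled total RNA of 24 samples was read on one-colour Agilent arrays. Per the file headers, the authors used Agilent Feature Extraction 10.7.3.1. The deposited intensity values are background-subtracted signals on a linear scale without scaling across arrays, and those of the series table were identical (largest difference 0). Deposited marks of other kinds (well above background, non-uniform, outlier) were read beside them; 185 to 312 uneven spots per array were left out, and no spot was saturated. Gene names are those of the array files, with coordinates in mm9.

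From these, log2 signal minus the array's 75th percentile was computed, and spots of 1 probe were averaged. Probes that some group had well above background on each of its 4 arrays (19522 probes, 15002 gene names) entered a linear model with 1 mean per group over 24 arrays in limma 3.58.1 (R 4.3.3, statmod 1.5.0; 18 residual and 3.17 prior degrees of freedom). Tests were 2-sided, with Benjamini-Hochberg adjustment over all probes and calls at an adjusted p under 0.05. The fit was also run on simulated data with independent normal spread. Those data held no discordant arrays, slide effect or background floor, so the run cannot show how the fit copes with them. Errors are limma SE unless SD is stated. Precision is limited by how few arrays there were. The rule names all Gbp members, the list members with the smallest adjusted p among those called, and the 5 genes most like Gbp2 and most like the Gbp probe of highest mean. Lists use the probe of highest mean per gene. The members and lists were chosen with earlier results of these data known. Replicate numbers follow sample order, and slides were read from the file headers. Alternatives were normexp (offset 50), quantile normalization, another percentile, other filters, slide or set blocks, 1 probe per gene, only the arrays compared, the 3 discordant arrays left out, and each array left out. Promoter sequences are from RefSeq, GRCm38.p6. The macrophage marker list is not reported here.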

Additional observations from a re-analysis of the deposited data

Results flagged for a closer look

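Within groups of 4 arrays, 60 groups of the 10 fitted probes were checked for an array far from its fellows by Dixon's ratio of gap to range (95% critical value), and 4 were found, where chance gives about 1 in 20. Gbp4 was lowest in p363-549 replicate 4, at -5.58 beside a median of -2.17 for the other arrays (ratio 0.903). The first Gbp5 probe was lowest in both fragments replicate 4, at -4.21 beside a median of -2.45 (ratio 0.838). Gbp11 was lowest in D361E replicate 4, at -4.07 beside a median of -2.86 (ratio 0.881). Gbp7 was lowest in the same D361E array, at -2.48 beside a median of -2.08 (ratio 0.871). The Gbp4 and Gbp5 arrays are among the 3 that resembled another group.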

How the results depend on the processing

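For both fragments minus VOID, 6 members passed as reported, 0 after normexp correction and 1 (Gbp7, of 5 tested) over only probes above background on all 24 arrays, but 8 with the sample sets as a block (Gbp2 and Gbp6 added, beside 2920 of all probes in place of 735). With no filter it was 5 of 15 (Gbp7 and Gbp9 lost and the second Gbp6 probe, lower, added), beside 503 of 39429 probes. Without single arrays it was 3 to 6, with 3 without both-fragment replicate 1 or 2 or VOID replicate 3. For D361E minus VOID the count of 1 became 0 after normexp correction. It was also 0 over only probes above background on all 24 arrays (Gbp2 was not among them). It was 2 with no filter (Gbp1 added, beside 123 of 39429 probes) and 3 without the 3 discordant arrays (beside 278 of 19522). Over only the arrays compared it was 2, where the share of all probes was not counted. Without single arrays it was 1 to 3. It was 2 without p1-361 replicate 4 or both-fragment replicate 4, and 3 without p363-549 replicate 4. For p1-361 minus VOID the count of 0 became 1 with no filter (Gbp6, second probe, lower, beside 85 of 39429 probes). That probe was well above background on 0 of 4 p1-361 arrays and 1 of 4 VOID arrays. The count was 1 with the sets as a block (Gbp2, beside 528 of 19522 probes) and 1 without the 3 arrays (Gbp5, beside 465). It was 0 without any single array. For p363-549 minus VOID it was 0 throughout. For any difference among the groups, 4 became 0 after normexp correction, 0 over only probes above background on all 24 arrays and 7 without the 3 arrays, with 1 to 6 without single arrays (1 without both-fragment replicate 1 or 2, and 2 without both-fragment replicate 3 or VOID replicate 1 or 3). The causes were not tested beyond what each change itself sets. Among 630 refits of 18 single differences, 555 kept their side of the threshold or moved less than the spread. A further 62 lost the call, 10 gained it and 3 moved by more than the spread. No sign changed, but many of these refits could not change it. With 1 mean per group, leaving out an array of a group outside the comparison leaves the estimate as it was. The labels give no replicate numbers, so the sample sets pair nothing by label, and their block is only an alternative. Dim probes limit the depth: Gbp2, Gbp4, the first Gbp5 probe and Gbp11 were not well above background on some arrays, and Gbp3 was not on p363-549 replicate 3.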

Other observations

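The array that was highest within its group was often of the same replicate number: replicate 1 in 5 of 6 groups for Gbp6 and 4 of 6 for the second Gbp5 probe, replicate 3 in 5 of 6 for Gbp11, and replicate 4 in 5 of 6 for Gbp3 and 4 of 6 for Gbp2. Replicates were numbered in sample order, and these probes were picked out after their values were seen. The second Gbp1 probe, outside the fit, was well above background on 1 of 24 arrays. Its levels were -6.60, -5.35, -5.82 and -5.36 in D361E and -6.06, -5.45, -6.08 and -5.16 in WT, against -7.14, -7.71, -7.08 and -6.76 in VOID.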
